A study of Mus musculus with 6 samples.

Results

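The genes described here encode receptors, and calreticulin, a surface signal of the dying cell, through which phagocytes recognize corpses by routes other than the TAM kinases, the integrins and the scavenger receptors. They are the TIM family genes Timd4, Havcr1 and Havcr2, the adhesion receptor gene Adgrb1 (BAI1), the CD300 family genes Cd300a and Cd300lf, and Cd93, Megf10, Lrp1 and Calr. They were chosen by name, as 10 of 18194 genes that have a probe set naming only that gene, and they hold 19 of 45101 probe sets, 5 for Cd93, 3 for Calr, 2 each for Havcr1, Cd300a and Lrp1, and 1 for each of the other 5 genes.

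Mammary glands were taken at involution day 2 from 3 WT mice, named Nas478, Nas483 and Nas484, and from 3 Rac1-/- mice, named Nas496, Nas497 and Nas518, with 1 array per mouse. Rac1-/- mice were Rac1fx/fxYFP;WAPiCreTg/⋅, and WT mice were Rac1fx/fxYFP without Cre, so both groups carried the floxed Rac1 alleles and the RosaYFP reporter. The WT mice did not carry the Cre transgene, so an effect of Cre alone cannot be told apart from loss of Rac1 in these arrays. The groups were age matched, the RNA came from inguinal gland 4, and Cre was driven by the whey acidic protein promoter, which acts in luminal epithelial cells from mid-pregnancy, so stromal, immune and myoepithelial cells of the whole gland kept Rac1. Values are given in the order of the mice above, as quantile-normalized log2 intensities, and every log2 difference (log2 fold change) is the Rac1-/- mean minus the WT mean.

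A dying cell moves phosphatidylserine from the inner to the outer leaflet of its membrane, and phagocytes read this lipid and a few exposed proteins as signals to engulf it. TIM-4 (Timd4) and TIM-1 (Havcr1) bind phosphatidylserine with an immunoglobulin domain, BAI1 binds it with thrombospondin repeats and hands the signal to ELMO and DOCK180, which activate Rac, and CD300 proteins bind lipids of the dead cell and either dampen or promote uptake. LRP1 answers calreticulin exposed on the dying cell, and MEGF10 binds the complement protein C1q. In the involuting mammary gland such corpses are taken up by the surviving alveolar epithelium and by macrophages.

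The arrays differed in ways that touch these genes. The deposited median intensity ran from 40.6 to 88.0 and the interquartile range on the log2 scale from 1.23 to 2.85, and the arrays of Nas484 and Nas497, 1 of each group, lay farthest to one side on the first principal component (43.6% of the variance). Actin control probe sets at the 3' and 5' ends of the transcript were compared by their log2 difference, 3' minus 5'. It was lower in every Rac1-/- mouse (-1.24 to -0.30) than in every WT mouse (-0.17 to 0.048), and lowest in Nas497. Values below 0 mean a brighter 5' set, and they are not read here as a grade of RNA quality. Since the difference splits the groups, fits with it as a covariate cannot separate it from genotype. Nas497 held the highest or the lowest value of the 6 mice for 7 of the 10 genes, against 50.7% of all genes. Milk protein and luminal markers were among the brightest on these arrays, and none of the 8 was at the floor. Rac1 itself had log2 intensities of 9.31, 9.50 and 8.97 in WT mice and 9.51, 9.01 and 9.84 in Rac1-/- mice on its brightest probe set, a log2 difference of 0.19 (SE 0.46). Its next probe set had 8.74, 9.0 and 9.89 in WT mice and 8.76, 8.34 and 8.14 in Rac1-/- mice, -0.80 (SE 0.50), and on a dim set it was -1.38 (SE 1.05). The groups overlapped on all 3, and where the deleted part lies relative to these probe sets is not stated in the labels or the methods, so they do not check the labels.

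In Rac1-/- glands 4 of the 10 genes had a higher mean and 6 a lower mean than in WT glands, with a median log2 difference of -0.14, and none passed limma's test. The estimates ran from -1.28 for Calr to 1.02 for Havcr2, and over all 18194 genes the median was 0.060, with 53.9% of genes above 0. At an adjusted p under 0.05 the share of all genes called was 0%, and at an unadjusted p under 0.05 it was 2.23% higher and 1.82% lower, against 0 of the 10 genes in either direction. Groups did not overlap for 1 of the 10, Adgrb1, against 9.62% of all genes, made up of 5.41% with the Rac1-/- mice above and 4.2% with them below. A log2 difference of at least 1 was seen for 1 of the 10 (Havcr2) and 9.2% of all genes, and of -1 or less for 2 (Havcr1 and Calr) and 5.81%. The 95% intervals were wide, reaching between 0.96 and 2.73 to either side of the estimate on the log2 scale. Only 4 of the 10 (Cd300lf, Cd93, Lrp1 and Calr) had a mean intensity above the median of all genes. Counted from the dimmest gene, Havcr2 lay at percentile 24.8 and Adgrb1 at 41.6. Whether the dim genes were expressed was not tested. The sign of the group's median was not stable. It was 0.16 without Nas496, 0.042 without Nas497, 0.095 without Nas518, 0.010 with the actin control difference as a covariate and 0.40 without normalization between arrays.

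**Figure D1:**
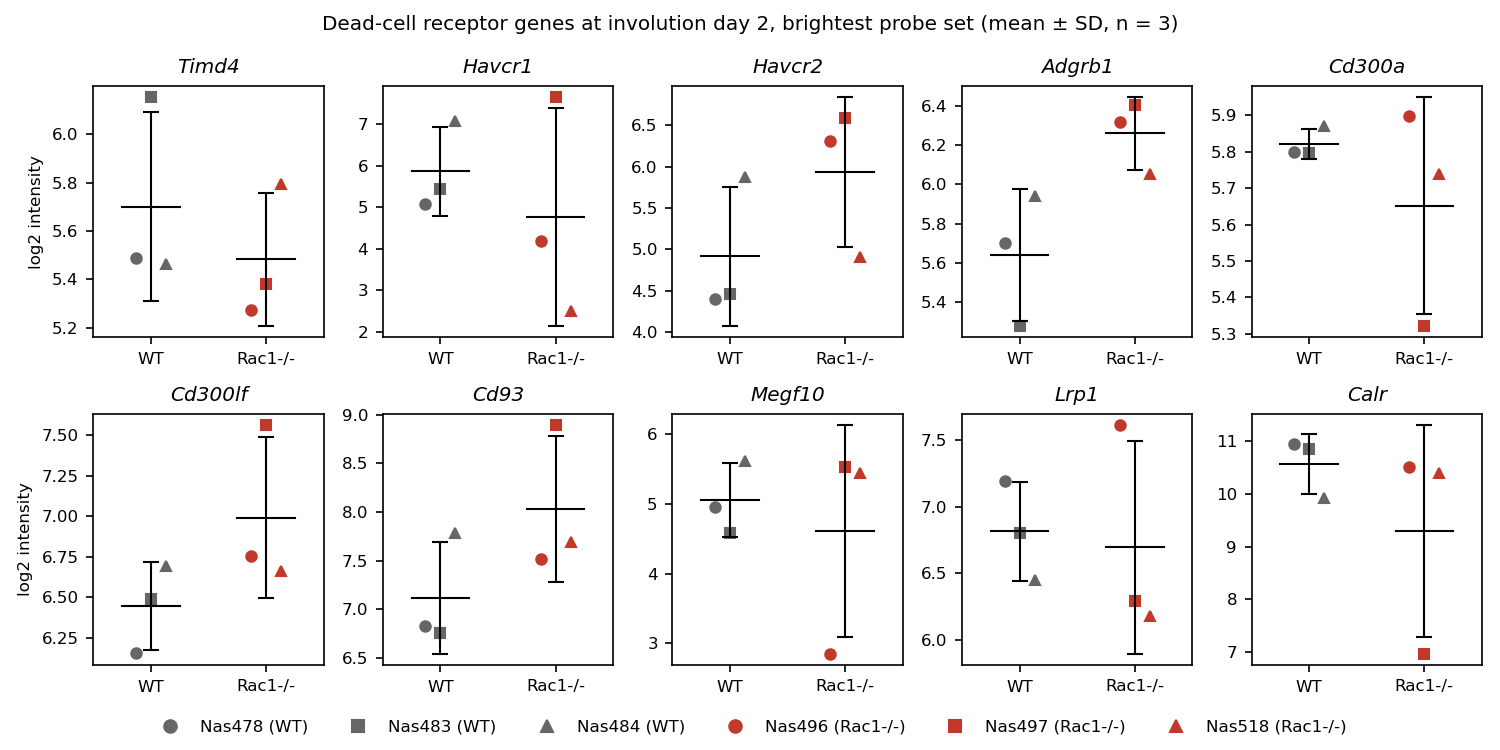
Quantile-normalized log2 intensity of the brightest probe set of each of the 10 genes, 1 panel per gene with its own vertical scale, in grey for 3 WT mice and in red for 3 Rac1-/- mice. Each symbol is 1 mouse, the horizontal line is the group mean and the bar its SD, and Adgrb1 alone has groups that do not overlap.

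Promoter stretches are shown for the genes whose RefSeq window (GRCm38.p6, the bases just before and after the start, with a window for 7 of the 10 genes) holds a motif tied to the cells or the state in which they are known to be used. Windows of Adgrb1, Cd93 and Megf10 were not analysed here. Capitals mark the motif, each stretch is written 5' to 3' in the direction of its gene, and the motifs were chosen after the sequences and values had been seen. The stretch of Calr (chr8:84847030-84847138, minus strand) holds an ER stress response element, CCAAT and CCACG with a spacer of fixed length between them, on the opposite strand with its centre 153 bases upstream of the start. Those of Havcr2 (chr11:46454878-46454955, plus strand) and Cd300lf (chr11:115133968-115134037, minus strand) hold GAGGAAGT, the core of sites of the myeloid factor PU.1, within 4 bases of the window's transcript start. For Cd300lf that start belongs to a transcript that begins inside the annotated gene (chr11:115116214-115135372), downstream of the gene's outermost start.
Calr: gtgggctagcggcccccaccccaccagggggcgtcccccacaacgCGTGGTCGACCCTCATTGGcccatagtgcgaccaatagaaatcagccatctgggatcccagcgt
Havcr2: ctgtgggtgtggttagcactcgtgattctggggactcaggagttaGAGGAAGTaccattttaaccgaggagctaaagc
Cd300lf: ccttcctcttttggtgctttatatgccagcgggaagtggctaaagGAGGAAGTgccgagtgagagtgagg

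Both strands were searched, and the motifs do not overlap each other. The ER stress response element was in 0.119% of 32851 promoter windows and GAGGAAGT in 3.2%. Among the genes measured here, 20 had the former, Calr among them, with 13 below and 7 above 0 and a median log2 difference of -0.32. The latter was in 501, Havcr2 and Cd300lf among them, with 285 above and 216 below 0 and a median of 0.090. Over all 18194 genes the median was 0.060, with 53.9% above 0, and the motif sets were not tested against it. The windows of Timd4, Havcr1, Cd300a and Lrp1 held neither motif. A match describes the letters of the window and not binding of a factor.

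The TIM genes lie in one region of chromosome 11 (GRCm38.p6), Havcr2 at 46454931 to 46481255, Havcr1 at 46739822 to 46779578 and Timd4 at 46810786 to 46844333, and gene positions in the rest of the text are on the same build. Timd4, a tethering receptor of resident macrophages, had log2 intensities (probe set 1455318_at) of 5.49, 6.15 and 5.46 in WT mice and 5.28, 5.38 and 5.79 in Rac1-/- mice. The groups overlapped, and only Nas483 stood above the rest. The log2 difference was -0.22 (SE 0.45, limma adjusted p = 0.973), and it was 0.0066 without Nas483.

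Havcr1, known as the kidney injury molecule that turns epithelial cells into phagocytes, had 5.07, 5.44 and 7.07 in WT mice and 4.18, 7.64 and 2.49 in Rac1-/- mice on its brighter probe set, 1450364_a_at. The highest values were those of Nas484 and Nas497, 1 mouse of each group, and the Rac1-/- mice spanned a wider range than the WT mice. Its log2 difference was -1.09 (SE 1.20, limma adjusted p = 0.95). On the other probe set, 1434716_at, the values were 5.18, 5.58 and 5.23 in WT mice and 5.22, 5.28 and 4.17 in Rac1-/- mice, a log2 difference of -0.44 (SE 0.49). Nas484 and Nas497 did not stand apart there, so the high values on the brighter probe set were not seen on both. Nas518 was the lowest mouse on both, and without it the estimate was 0.048 on the brightest probe set. Over all 16 alternatives with a value the Havcr1 estimate ran from -4.35 to 0.30.

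Havcr2, the gene of TIM-3, which is found on macrophages, dendritic cells and exhausted T cells, had the highest estimate of the 10 genes. Its log2 intensities (1451584_at) were 4.40, 4.46 and 5.88 in WT mice and 6.32, 6.58 and 4.90 in Rac1-/- mice. The lowest values were those of Nas478 and Nas483, and Nas484 and Nas518 kept the groups overlapping. The log2 difference was 1.02 (95% interval -0.43 to 2.47, limma adjusted p = 0.946). Before normalization the deposited intensities were 5.03, 9.23 and 68.3 in WT mice and 73.9, 116 and 38.1 in Rac1-/- mice from arrays whose medians also differed, and Nas478 and Nas483 were the lowest on both scales. The estimate stayed above 0 under all 16 alternatives that gave a value, but ran from 0.049 with the actin difference as a covariate to 2.23 without normalization between arrays. Of these, the trended prior moves the estimate of no gene, and other choices of probe set could not move this one, since the gene has 1 probe set. Nor could the floor of 16, which lay below all its normalized values. It was 1.58 without Nas484 and 1.60 without Nas518.

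Adgrb1, the gene of BAI1 and the receptor whose known route to Rac runs through ELMO and DOCK180, had log2 intensities (1455363_at, gene at chr15:74516196-74589465) of 5.70, 5.28 and 5.94 in WT mice and 6.32, 6.40 and 6.05 in Rac1-/- mice. Every Rac1-/- mouse lay above every WT mouse, though Nas518 and Nas484 were separated by a small gap. The means were 5.64 ± 0.33 (SD, n = 3) and 6.26 ± 0.18 (SD, n = 3), a log2 difference of 0.62 (95% interval -0.37 to 1.60, limma adjusted p = 0.946). Leaving out single mice gave 0.41 to 0.80, and over all 16 alternatives with a value the estimate stayed between 0.39 and 1.18. The alternatives that could not move Havcr2 could not move Adgrb1 either, which also has 1 probe set. A list of 24 genes on or near the path from these receptors to Rac also held Rac1 itself, lipid exporters and phosphatases. None of the 24 passed the test, 14 lay above and 10 below 0, and the median log2 difference was 0.10. Of these, the 3 with the smallest p were Elmo1, the ELMO adaptor itself, with 1.56 (SE 0.54), Fcer1g, the signaling chain of Fc and CD300 receptors, with 1.31 (SE 0.56), and Abca1, a lipid exporter, with -0.88 (SE 0.49). Scaling the arrays to one median gave 0.73, 0.50 and -1.91. Elmo1, Fcer1g and Ptpn11, 3 of the 24, had all Rac1-/- mice above all WT mice, against 5.41% of all genes.

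The CD300 genes lie in a cluster further along chromosome 11 (Cd300a at chr11:114889152-114901946). Cd300a, whose product inhibits uptake through phosphatases, had log2 intensities (1435903_at) of 5.80, 5.80 and 5.87 in WT mice and 5.90, 5.32 and 5.74 in Rac1-/- mice. The WT mice agreed closely and Nas497 alone lay clearly lower. The log2 difference was -0.17 (SE 0.42, limma adjusted p = 0.978) and -0.0043 without Nas497. The dimmer probe set of Cd300a, 1445292_at, had 3.90, 4.93 and 5.72 in WT mice and 4.40, 3.72 and 5.21 in Rac1-/- mice, and the groups overlapped, with Nas497 the lowest mouse and Nas484 the highest.

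Cd300lf, which binds phosphatidylserine and ceramide on myeloid cells, had log2 intensities (1427994_at) of 6.15, 6.49 and 6.69 in WT mice and 6.75, 7.56 and 6.66 in Rac1-/- mice. Nas497 was the highest, Nas518 lay just below Nas484, and the means were 6.44 ± 0.27 (SD, n = 3) and 6.99 ± 0.50 (SD, n = 3). The log2 difference was 0.55 (95% interval -0.51 to 1.61, limma adjusted p = 0.946). It was 0.29 without Nas497, 0.26 after scaling arrays to one median, and -0.086 once the actin difference entered the fit. Among the relatives of the 10 genes, 18 of 22 listed were measured, none passed the test, and 8 lay above and 10 below 0 with a median of -0.076. Other CD300 genes held the 2 smallest p in that list. Cd300lb, an activating receptor of myeloid cells, had 6.29, 6.30 and 5.92 in WT mice and 7.19, 7.01 and 7.22 in Rac1-/- mice, a log2 difference of 0.97 (SE 0.42) with groups that did not overlap. Cd300lg, a receptor of capillary endothelium, had 5.74, 5.54 and 6.10 in WT mice and 5.43, 2.74 and 3.41 in Rac1-/- mice, a log2 difference of -1.93 (SE 0.70), also without overlap, on a dim probe set. These were 2 of 18 relatives without overlap, near the 9.62% of all genes.

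Macrophage markers are given beside these myeloid receptors. Of 13 measured, 11 had an estimate above 0 and 2 below it (median log2 difference 0.72), and none passed the test or was at the floor. Clec7a had 1.22 (SE 0.64), and 1.97 without Nas497. Ctss had 1.28 (SE 0.72), but 0.69 without Nas484, 0.82 without Nas496 and 0.21 with arrays scaled to a common median. The log2 of their summed intensity ran from 11.09 to 12.05 in WT and from 11.76 to 12.84 in Rac1-/- glands, and the groups overlapped, with Nas496 and Nas518 the highest. Havcr2 and Cd300lf were highest in Nas497, whose macrophage sum was the lowest of the Rac1-/- mice. Of 7 T and NK cell markers 3 lay above and 4 below 0 with a median of -0.14, of 7 mast cell markers 4 above and 3 below (0.24), and of 6 neutrophil markers 5 above and 1 below (0.31). In whole glands, more cells of a type and more RNA per cell cannot be told apart, and the part of cell numbers in these values was not tested.

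Cd93, a C-type lectin-like receptor of endothelium and myeloid cells that was first described as a C1q receptor, differed between its probe sets. The gene lies at chr2:148436651-148443535. On the brightest, 1449521_at, it had 6.83, 6.75 and 7.78 in WT mice and 7.51, 8.89 and 7.69 in Rac1-/- mice, a log2 difference of 0.91 (95% interval -0.35 to 2.17, limma adjusted p = 0.946). Nas484 lay above Nas496 and Nas518, so the groups overlapped, and the estimate was 0.53 without Nas497 and 0.28 with arrays scaled to a common median. The next, 1419589_at, had 6.59, 6.28 and 8.70 in WT mice and 6.90, 7.66 and 6.84 in Rac1-/- mice, a log2 difference of -0.054 (SE 0.70), and the third, 1456046_at, had 6.87, 6.63 and 8.50 and 7.24, 6.67 and 6.79, a log2 difference of -0.43 (SE 0.60). On both, Nas484 was by far the highest mouse, and without it they gave 0.73 and 0.16. The fourth, 1441907_s_at, of a kind that can pick up several transcripts, had 6.61, 6.65 and 5.76 in WT mice and 5.33, 5.36 and 5.42 in Rac1-/- mice. All 3 Rac1-/- mice were below all WT mice there, with a log2 difference of -0.97 (SE 0.46, limma adjusted p = 0.957 over 34958 probe sets). The dimmest, 1441908_x_at, had a log2 difference of -0.61 (SE 0.88) with overlapping groups.

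The estimates of Cd93 thus ranged over 1.88 on the log2 scale, from -0.97 to 0.91, where the median range of 9012 genes with more than 1 probe set was 0.81. Probe sets of opposite sign are common on these arrays, at 54% of those 9012 genes, and of the 5 genes here with more than 1 probe set it was Cd93 alone. With the mean of all its probe sets Cd93 was -0.23, and once the actin difference entered the fit, -0.091. Of 12 endothelial markers 7 lay above and 5 below 0, with a median of 0.090, and none passed the test. The log2 of their summed intensity was highest in Nas484 (11.42) and Nas497 (11.24), the 2 arrays that stand apart, and ran from 10.15 to 10.37 in the other 4. Both mice were the highest for Cd93 on its first and second probe sets, Nas484 alone was high on the third, and neither was the highest on the dimmest sets. Erg, an endothelial transcription factor, had a log2 difference of 1.27 (SE 0.55), or 0.35 with the mean of all its probe sets, and Tie1, an endothelial receptor kinase, -0.59 (SE 0.43). The part of endothelial content in Cd93 was not tested.

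**Figure D2:**
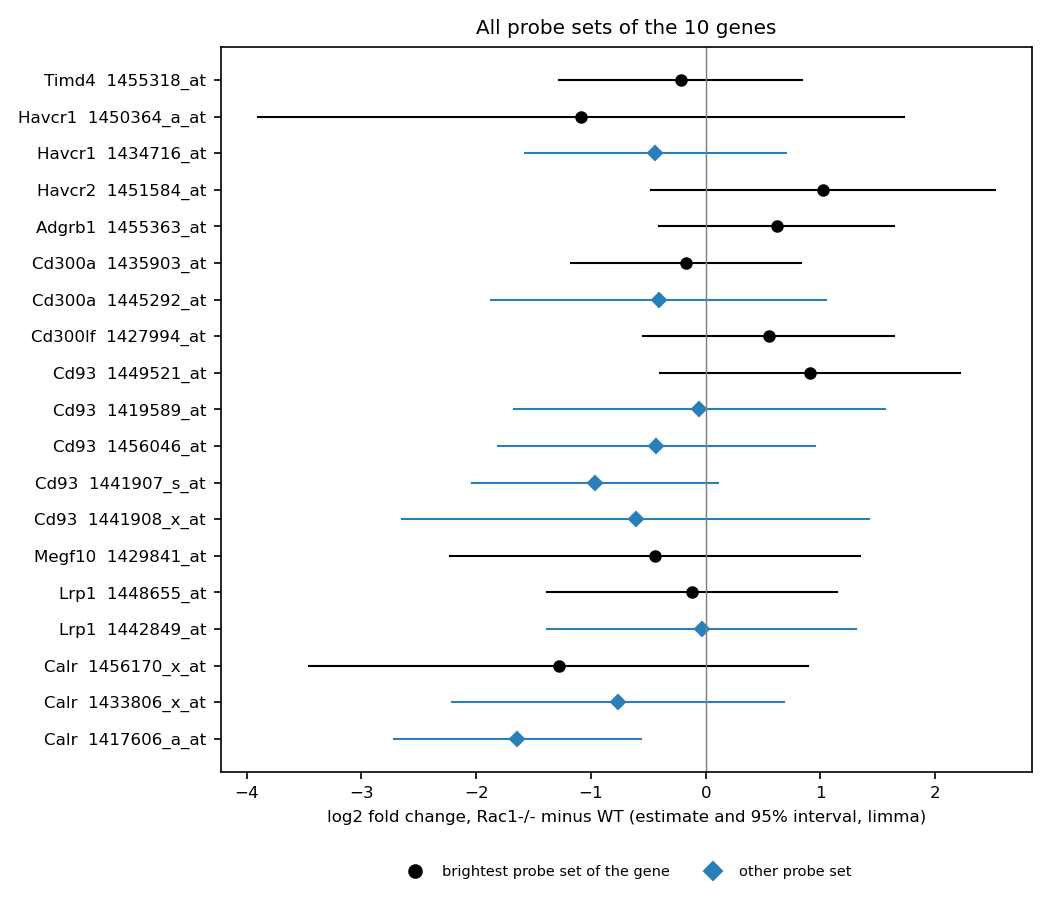
Log2 fold change (Rac1-/- minus WT) on all 19 probe sets of the 10 genes, with 95% intervals from limma fitted over 34958 probe sets (n = 3 mice per group), which differ slightly from the intervals of the fit over genes. Black circles are the brightest probe set of each gene and blue diamonds the others, and the interval lies off 0 for 1 probe set alone, the dimmest of Calr, at -1.64.

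Megf10, a receptor with EGF-like repeats best known from glia and muscle, was the dimmest of the 10 genes. Its log2 intensities (1429841_at) were 4.96, 4.58 and 5.62 in WT mice and 2.85, 5.54 and 5.44 in Rac1-/- mice. Nas496 alone was low, and the other Rac1-/- mice lay inside the WT range. The log2 difference was -0.44 (SE 0.76, limma adjusted p = 0.965), and it was 0.43 without Nas496. C1q, its ligand, was in a list of ligands and signals of dead-cell uptake. The list also holds Sirpa, which is a receptor on the phagocyte. Estimates were above 0 for 12 of 17 measured genes and below it for 5 (median 0.29), and none passed. All Rac1-/- mice lay above all WT mice for 5 of the 17 (Thbs1, Anxa1, Gas6, C1qa and Sirpa), against 5.41% of all genes. Of the C1q chains, C1qa had 0.63 (SE 0.44), while C1qb with 0.69 (SE 0.80) and C1qc with 0.37 (SE 0.55) had overlapping groups. Of the 17, the 3 with the smallest p were Thbs1 with 1.55 (SE 0.42), Anxa1, the phosphatidylserine-binding annexin A1, with 1.74 (SE 0.49), and Gas6 with 0.82 (SE 0.46). With arrays scaled to a common median these were 0.65, 0.69 and -0.056.

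Lrp1, a large endocytic receptor of fibroblasts, adipocytes and macrophages that partners calreticulin, had log2 intensities (1448655_at, gene at chr10:127538157-127621148) of 7.20, 6.80 and 6.45 in WT mice and 7.61, 6.29 and 6.18 in Rac1-/- mice. Nas496 was the highest and Nas497 and Nas518 the lowest of all mice, so the Rac1-/- group enclosed the WT group. The log2 difference was -0.12 (95% interval -1.34 to 1.10, limma adjusted p = 0.992), and on its dimmer probe set, 1442849_at, it was -0.035 (SE 0.59). Leaving out single mice turned the sign on the brighter set, to 0.067 without Nas478, 0.088 without Nas497 and 0.14 without Nas518. Values of the dimmer set were 6.08, 5.20 and 4.81 in WT mice and 5.97, 4.46 and 5.56 in Rac1-/- mice, and Nas478 and Nas496 were again the brightest of their groups. Of the fibroblast markers 5 of 7 lay above 0, with a median of 0.12, and none passed the test. Dpt had -0.70 (SE 1.07), or 0.59 without Nas497, and Dcn 0.23 (SE 0.45). Lrpap1, the chaperone of LRP1 in the secretory pathway, had 8.91, 8.75 and 10.13 in WT mice and 7.97, 8.83 and 7.38 in Rac1-/- mice, a log2 difference of -1.20 (SE 0.58) with overlapping groups, or -0.78 without Nas484.

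Calr encodes calreticulin, a calcium-binding chaperone of the endoplasmic reticulum that is also exposed on dying cells and engages LRP1. It lies at chr8:84842088-84846931 and had the lowest estimate of the 10 genes, and its 3 probe sets all lay below 0. The brightest, 1456170_x_at, had log2 intensities of 10.96, 10.86 and 9.92 in WT mice and 10.51, 6.97 and 10.41 in Rac1-/- mice, a log2 difference of -1.28 (SE 0.92, limma adjusted p = 0.946). Nas496 and Nas518 lay inside the WT range, Nas497 lay far below every other mouse, and without Nas497 the estimate was -0.12. The second, 1433806_x_at, had 9.95, 9.95 and 9.51 in WT mice and 9.88, 7.75 and 9.48 in Rac1-/- mice, a log2 difference of -0.77 (SE 0.63), and again -0.12 without Nas497. Both are _x_at sets, which can cross-hybridize, and Nas497 is the mouse with the lowest actin 3' minus 5' difference. With that difference as a covariate, a fit that cannot separate it from genotype, these sets gave 1.17 and 0.55.

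The dimmest Calr set, 1417606_a_at, which is not marked as cross-hybridizing, had 7.98, 7.48 and 8.45 in WT mice and 6.50, 6.33 and 6.15 in Rac1-/- mice. The highest Rac1-/- mouse was below the lowest WT mouse, and the 3 Rac1-/- mice were close together. The means were 7.97 ± 0.48 (SD, n = 3) and 6.33 ± 0.18 (SD, n = 3), a log2 difference of -1.64 (95% interval -2.71 to -0.57), with an unadjusted p of 0.00779 and an adjusted p of 0.957 from limma over all probe sets. It was the only one of the 19 with an unadjusted p under 0.05, where 2.45% of all probe sets were lower and 1.72% higher at that level. Of the 19, the groups did not overlap for 1 set with Rac1-/- above (Adgrb1) and 2 with Rac1-/- below (this one and a Cd93 set), against 4.27% and 5.34% of all probe sets and 9.61% in either direction. Estimates lay above 0 on 4 of the 19 and on 46.8% of all probe sets. The Calr set stayed between -2.01 and -1.45 under all 11 alternatives run on single probe sets, among them those without Nas497 and with other scalings. The fit with the actin difference as a covariate is also 1 of the 11, and it cannot separate that difference from genotype. Canx, the membrane-bound partner chaperone calnexin, had 8.87, 9.29 and 8.42 in WT mice and 9.16, 5.67 and 8.79 in Rac1-/- mice, a log2 difference of -0.98 (SE 0.88), and Nas497 was again far the lowest.

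**Figure D3:**
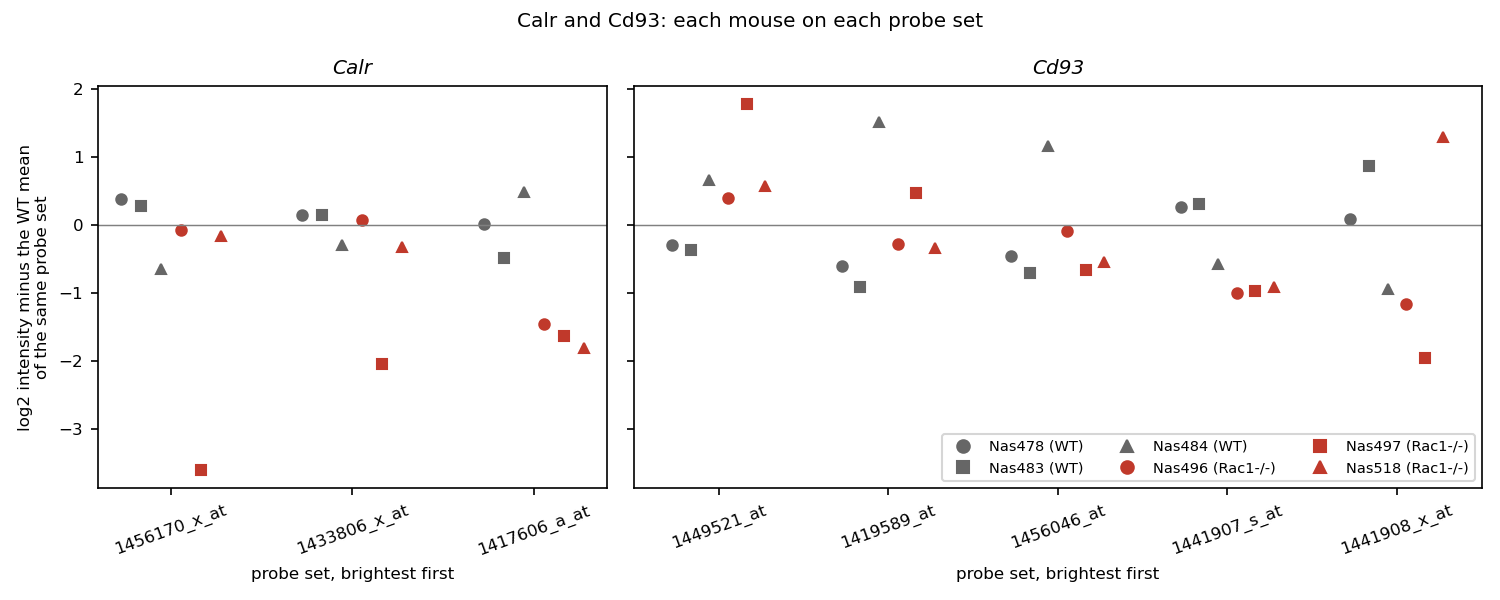
Log2 intensity of each mouse minus the WT mean of the same probe set, for the 3 probe sets of Calr (left) and the 5 of Cd93 (right), coloured grey for WT and red for Rac1-/- animals. On the brightest Calr sets Nas497 alone is far below the rest, whereas on the dimmest all 3 Rac1-/- mice lie below all WT mice, and for Cd93 the position of the Rac1-/- mice differs from set to set.

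Luminal markers are given beside Calr, since secretory epithelium is rich in endoplasmic reticulum. The log2 of the summed intensity of 8 luminal markers ran from 16.39 to 16.79 in WT and from 15.14 to 15.42 in Rac1-/- glands without overlap, a sum that the milk protein genes dominate. Wap had a log2 difference of -2.77 (SE 0.45) and Elf5, a factor of secretory differentiation, -1.45 (SE 0.47), while Epcam had -0.14 (SE 0.47) and Krt8 0.87 (SE 0.57). Of the 8 luminal markers, 3 lay above 0 (Krt18, Krt8 and Cdh1) and 5 below, with a median of -0.16, and none passed the test. Krt18, at 0.90 (SE 0.43), had all Rac1-/- mice above all WT mice, and 3 of the 8 had all below. The shares of all genes were 5.41% and 4.2%. Their part in the values of Calr was not tested. The summed myoepithelial markers ran from 11.07 to 11.73 in Rac1-/- glands, and every WT gland was below this range. The brightest markers weigh most in that sum. The mean log2 intensity of the same 6 markers overlapped, from 7.448 to 7.735 in WT and from 7.653 to 8.337 in Rac1-/- glands. By gene, 4 of 6 myoepithelial, 5 of 5 adipocyte and 3 of 5 neuronal and glial markers lay above 0, with medians of 0.18, 0.47 and 0.0064.

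Other engulfment receptors outside these routes gave 8 of 16 above and 8 below 0, with a median of 0.070 and none called. The 3 with the smallest p were Scarb1 and Cd36, both at -1.52 (SE 0.53 and 0.60), and Msr1, a scavenger receptor of macrophages, at 0.83 (SE 0.46). Cd36 was -0.96 without Nas497 and -0.29 once the actin difference entered the fit, Scarb1 was -0.68 without Nas484 and Nas497, and Msr1 was 0.25 with arrays scaled to a common median. The 10 genes were not tested against this list.

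**Figure D4:**
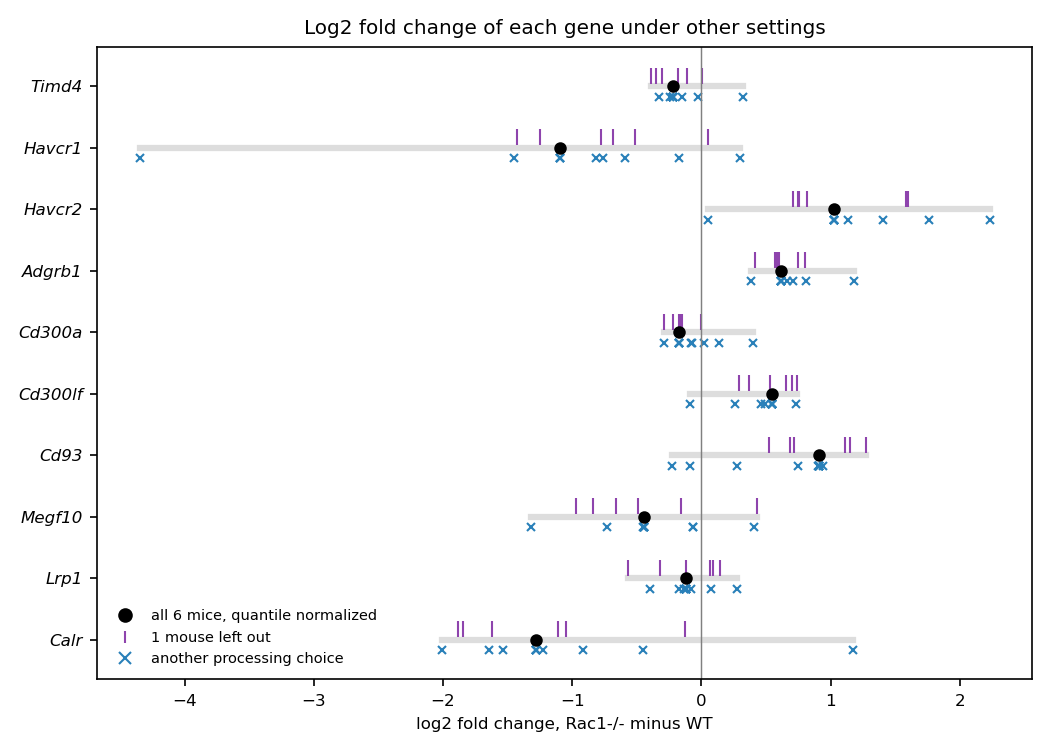
Log2 fold change of the brightest probe set of each gene with all 6 mice (black circle), with 1 mouse left out (purple bars) and under other processing choices (blue crosses), with a grey line over the whole range. Adgrb1 and Havcr2 stay above 0 throughout, and the other 8 cross 0 under at least 1 setting. Some processing choices cannot move the estimate of a gene with 1 probe set, such as Adgrb1 and Havcr2.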

How the data were processed

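The authors amplified RNA of small amount and low quality with the Sensation kit, hybridized it to Affymetrix mouse genome arrays and used Expression Console for quality control. They deposited an intensity on a linear scale for each probe set, and the sources used here name neither the summary method nor a test. From the values, the mean of each array after trimming 2% of probe sets at each end is 100, so the deposited intensities were scaled per array. No 2 arrays were identical (0 pairs). Depth is not a count on arrays, and their number limits the precision. The mice are separate animals.

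Quantile normalization was done with limma 3.58.1 under R 4.3.3, and the values were floored at 1 (82 to 1151 values per array were below it before normalization) and taken to log2. Of the probe sets, 34958 name 1 gene, 932 several and 9211 none, and only the first were used. Each gene took its probe set of highest mean, which can change with the setting. lmFit and eBayes were fitted over 18194 genes, and again over 34958 probe sets for the other probe sets of a gene, with Benjamini-Hochberg adjustment and a threshold of 0.05. Alternatives were each mouse left out, both outlying arrays left out, other scalings and floors, other choices of probe set, a filter on dim genes, a trended prior, array weights and actin as a covariate. Promoter windows came from RefSeq (GRCm38.p6). The genes and lists were chosen with earlier results of these data known. All 10 genes were named on every probe set, with the 3 genes of smallest p per pathway list and the 2 of smallest p in the macrophage, endothelial, fibroblast and luminal lists. Lrpap1 is one of these, and Canx, C1qa, C1qb, C1qc, Sirpa, Ptpn11, Epcam, Krt8, Krt18 and Cdh1 were named after their values were seen. Of the listed genes, 13 had no probe set with 1 symbol. On simulated data for 18194 genes, the fit recovered 25 of 50 genes given a simulated log2 shift of 4, 13 of 50 at 3, 0 of 50 at 2 and 0 of 50 at 1. It also called 2 genes given no shift. Each gene was drawn independently around its own mean and SD. Variation shared between genes on the real arrays was not simulated, so these counts are not rates for the real arrays.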

Additional observations from a re-analysis of the deposited data

How the results depend on the processing

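No gene passed the test under any alternative, with 0 called among all genes each time, so calls could not be lost. Scaling moved the median of all genes from 0.060 to -0.13 with a common median and to 0.34 without normalization, and values under these are to be read against that shift. Adgrb1 and Havcr2 did not change sign under any of the 16 alternatives with a value, nor did the Calr set 1417606_a_at or the Cd93 set 1441907_s_at under 11. No paired analysis was possible because the labels give no replicate numbers. The cause of the sign changes that follow was not tested. The alternatives for single probe sets and for genes outside the 10 were chosen after seeing the data. All values are log2 fold changes unless named as counts. A count is the number of the 10 genes whose groups did not overlap. The share over all genes was found for the main fit alone (9.62%), so counts under alternatives have no background beside them. Where mice are left out, groups overlap less by construction, and these counts are not read as results.

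With a common median, Rac1 was -0.82, Gas6 -0.056, Dcn -0.88, Cd300a 1445292_at 0.44, Cd93 1441908_x_at 0.13 and Lrp1 1442849_at 0.089. Without normalization the median of the 10 genes was 0.40, Timd4 0.32, Havcr1 0.30 (on 1434716_at, then its brightest set), Cd300a 0.40, Megf10 0.40, Lrp1 0.073, Rac1 -0.35, Dcn -0.41, Cd300a 1445292_at 0.91, Cd93 1419589_at 0.13, Cd93 1441908_x_at 0.60 and Lrp1 1442849_at 0.56. With the mean of all probe sets 2 genes had groups that did not overlap, Cd93 was -0.23 and Rac1 -0.66. Without _x_at and _s_at sets the count was also 2 and Rac1 -0.80. Over genes brighter than the median, which left 4 of the 10, the median was 0.21 and the count 0. A floor of 16 gave 0.14 for Cd93 1441908_x_at.

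Without Nas484 and Nas497 the count was 5, Cd300a 0.024, Cd300a 1445292_at 0.46, Cd93 1419589_at 0.53, Cd93 1456046_at 0.32 and Lrp1 1442849_at 0.14. With the actin difference as a covariate the median was 0.010, Cd300a 0.14, Cd300lf -0.086, Cd93 -0.091, Lrp1 0.27, Calr 1.17, Dpt 2.06, Cd300a 1445292_at 0.15, Cd93 1441908_x_at 1.11, Lrp1 1442849_at 0.94 and Calr 1433806_x_at 0.55.

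Leaving out each mouse gave a median of -0.16 to 0.16 and a count of 1 to 5, the count being 5 without Nas484, 3 without Nas496 and 4 without Nas518, since fewer mice overlap less by construction. Single genes ran from -1.88 to -0.12 for Calr, -1.42 to 0.048 for Havcr1, -0.57 to 0.14 for Lrp1, -0.97 to 0.43 for Megf10, -0.39 to 0.0066 for Timd4, -0.00064 to 0.43 for Rac1 and -1.49 to 0.59 for Dpt. Single probe sets ran from -0.84 to 0.025 for Cd300a 1445292_at, -0.49 to 0.73 for Cd93 1419589_at, -0.74 to 0.16 for Cd93 1456046_at, -1.52 to 0.074 for Cd93 1441908_x_at and -0.35 to 0.42 for Lrp1 1442849_at.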
